A study of Mus musculus with 10 samples.

Results

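Transcripts of 8 genes that mark or serve regulatory T cells, Foxp3, Ctla4, Ikzf2, Ikzf4, Nrp1, Lrrc32, Gpr83 and Capg, were compared between KO and WT T cells for the transcription factor KLF13. The genes were taken by name, and all 8 had probe sets of their own in both array tables, which share 19054 named genes. Each of the 8 was bright enough to be tested, among 12489 genes in all. CD3+ cells had been isolated from spleen, and all mice were male, of Balb/C background and 12 weeks old. The cells were activated for 4 days with plate-bound antibody to CD3 and soluble antibody to CD28. KLF13 KO mice (arrays KO1 to KO5) were set against WT mice (WT1 to WT5), and the labels name each as a mouse of its own. The sources used here do not say how the KLF13 allele was made or whether KLF13 is lost in T cells alone.

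Regulatory T cells restrain immune responses, and the forkhead factor FOXP3 defines their lineage. With the Ikaros family factors Helios (Ikzf2) and Eos (Ikzf4) it shapes a programme that includes CTLA-4, which takes the costimulatory ligands CD80 and CD86 away from antigen-presenting cells. Several of these genes are not exclusive to that lineage: activated conventional T cells also express Ctla4, and in human T cells activation can switch on FOXP3 for a short time. The cells measured here were all CD3+ cells and not a sorted regulatory subset, so fewer cells of a type and less RNA per cell cannot be told apart.

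The arrays form 3 sets, replicate 1, replicates 2 and 3, and replicates 4 and 5 of each genotype, and genotypes were compared within these sets. Replicates 1 to 3 came as an exon-level table, in which the column medians were 5.23 and 5.21 log2 units in KO1 and WT1 and 6.25 to 6.43 in the other 4 arrays. Replicates 4 and 5 came as a gene-level table with medians of 4.18 to 4.30. KO2 and KO3 resembled each other less (r = 0.796 over probe sets) than any other pair of exon-level arrays, while WT2 and WT3 had r = 0.976 and the gene-level pairs 0.989 to 0.992. Klf13 itself fell to 0.549 times its level in WT arrays (limma with the array set as block, -0.86 ± 0.12 log2 units, SE, 5 arrays a genotype, adjusted p = 0.0126) and was lower in 5 of 5 KO arrays than in the WT arrays of their set. Where its probes lie relative to the KO allele's change is unknown here. T cell identity genes were bright in both genotypes: Cd3e read 9.06 to 10.48 in the KO arrays and 9.28 to 10.53 in the WT arrays, and Cd4 and Cd8a also passed the filter on dim genes. The filter was passed by 6 of 6 T cell marker genes with a value, by 3 of 8 B and plasma cell markers, 5 of 11 myeloid and dendritic cell markers and 1 of 4 NK cell markers. It was also passed by 4 of 8 endothelial and stromal and 2 of 4 platelet and megakaryocyte markers, and by 12489 of all 19054 genes.

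Over all arrays none of the 8 regulatory T cell genes passed the test (limma, adjusted p under 0.05), where 0.585% of all tested genes did. Ikzf2 was the highest in the knockout arrays, at 1.34 times the wild-type level, and Gpr83 the lowest, at 0.610 of it. Differences ran from -0.71 to 0.42 log2 units with a median of 0.08, beside -0.10 over all tested genes, and 5 of the 8 were above 0. At an unadjusted p under 0.05 there were 3 of 8, against 14.9% of all tested genes. Ikzf2 was higher, as were 2.11% of all tested genes at that threshold, and Ctla4 and Gpr83 were lower, as were 12.8%. Ikzf2 was also the only one of the 8 whose difference had the same sign in each array set. Among all tested genes 35.9% had such a shared sign, 11.2% as higher and 24.7% as lower.

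**Figure D1:**
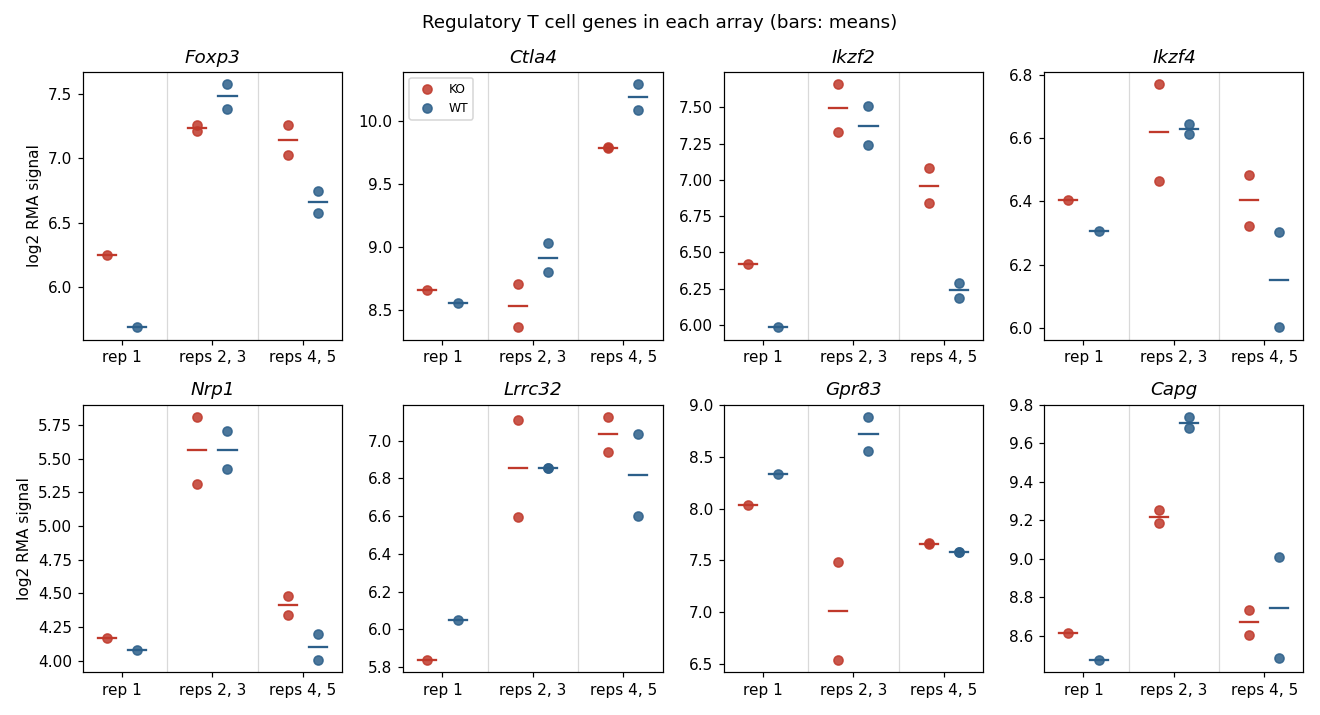
Log2 RMA signal (vertical axis, a separate scale for each gene) of the 8 regulatory T cell genes in each KO array (red) and WT array (blue), by array set on the horizontal axis, with bars at group means. In replicates 4 and 5 the KO arrays lie above both WT arrays for Foxp3, Ikzf2, Ikzf4, Nrp1 and Gpr83 and below them for Ctla4.

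Among the transcription factors, Foxp3 had differences of opposite sign in different array sets. It read 6.25, 7.21, 7.26, 7.26 and 7.03 log2 units in KO1 to KO5, against 5.69, 7.58, 7.38, 6.58 and 6.75 in WT1 to WT5. The KO array was higher in replicate 1, which has 1 array a genotype. Both KO arrays were lower than both WT arrays in replicates 2 and 3, as for 43.0% of all tested genes. Both were higher in replicates 4 and 5, as for 20.3%. The log2 differences were thus 0.56, -0.24 and 0.48. Over all arrays Foxp3 stood at 1.15 times the wild-type level (0.21 ± 0.15 log2 units, SE, 5 against 5, 95% interval -0.13 to 0.55, limma adjusted p = 0.488). This value was 0.12 without replicate 1, 0.31 without WT2 and 0.35 with array weights, which give noisy arrays less influence. In replicates 4 and 5 alone it stood at 0.48 ± 0.14 (SE, 2 against 2, adjusted p = 0.113). Whether the difference itself varied between array sets did not pass for Foxp3 either (limma interaction, adjusted p = 0.803).

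The 250 bases before the first Foxp3 start site listed by RefSeq lie on the plus strand of GRCm38.p6 at chrX:7579426-7579675. They are shown, with the matching stretch of Ctla4 at chr1:60908775-60909024, because both genes anchor the regulatory programme and Krüppel-like factors can bind CACCC (GT box) and GGGCGG (GC box) sequences. Capitals mark a match to either motif on either strand, and the motifs did not overlap each other.
Foxp3: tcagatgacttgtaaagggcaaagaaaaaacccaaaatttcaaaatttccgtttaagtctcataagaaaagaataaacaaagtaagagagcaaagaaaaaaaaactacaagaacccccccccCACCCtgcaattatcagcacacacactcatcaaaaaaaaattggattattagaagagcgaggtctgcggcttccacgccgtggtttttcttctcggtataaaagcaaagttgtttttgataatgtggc
Ctla4: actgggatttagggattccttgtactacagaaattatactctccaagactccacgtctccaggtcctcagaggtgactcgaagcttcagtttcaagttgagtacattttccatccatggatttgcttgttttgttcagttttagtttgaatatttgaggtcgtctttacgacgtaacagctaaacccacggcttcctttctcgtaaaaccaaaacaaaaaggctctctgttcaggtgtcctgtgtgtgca
The Foxp3 stretch held 1 CACCC and 0 GGGCGG, and the Ctla4 stretch held 0 of each. Of 32851 RefSeq promoter windows of this length, 52.0% held CACCC and 32.7% held GGGCGG on either strand. RefSeq promoter entries were at hand for 5 of the 8 genes. The other windows do not lie wholly before the annotated gene and are not shown: a second Foxp3 window held 2 CACCC, that of Nrp1 held 2 CACCC and 1 GGGCGG, and those of Capg and Gpr83 held 1 CACCC each.

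Ikzf2 encodes Helios, which stabilises regulatory T cells. It read 6.42, 7.66, 7.33, 6.84 and 7.08 log2 units in KO1 to KO5, against 5.98, 7.51, 7.24, 6.19 and 6.29 in WT1 to WT5. Of the 5 KO arrays, 4 were higher than each WT array of their set, and the exception was KO3, which lay between WT2 and WT3. Over all arrays Ikzf2 stood at 1.34 times the wild-type level (0.42 ± 0.14 log2 units, SE, 5 against 5, 95% interval 0.11 to 0.74, limma adjusted p = 0.244). Without KO3 the difference was 0.52 and the adjusted p 0.0240, and with array weights it was 0.53 and 0.0138. The adjusted p ranged up to 0.567 when other single arrays were left out. It was 0.9998 with the 2 tables as block, which leaves the lower level of KO1 and WT1 in the residual of every gene.

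In replicates 4 and 5 alone Ikzf2 rose to 1.65 times the wild-type level (0.72 ± 0.13 log2 units, SE, 2 against 2, 95% interval 0.42 to 1.02, limma adjusted p = 0.0279). It was the only one of the 8 genes that passed there, where 2.71% of all tested genes passed and 0.721% passed as higher. The adjusted p became 0.118 without KO5 and 0.0541 without WT4. In replicates 2 and 3 the difference was 0.12 ± 0.26 (SE, 2 against 2, adjusted p = 0.778), and in replicate 1 it was 0.44 with 1 array a genotype. Beside the higher Ikzf2 in replicates 4 and 5, the mean log2 signal of 3 CD8 lineage genes (Cd8a, Cd8b1 and Runx3) was 9.63 to 9.67 in the KO arrays and 9.43 to 9.47 in the WT arrays, and that of Cd4 and Zbtb7b was 8.77 to 8.92 in the KO arrays and 8.82 to 9.10 in the WT arrays. The part of such a shift in the Ikzf2 difference was not tested.

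Ikzf4, which encodes Eos, a factor reported to work with FOXP3 in gene silencing, varied less. It read 6.40, 6.77, 6.47, 6.32 and 6.48 in KO1 to KO5, against 6.30, 6.64, 6.61, 6.0 and 6.30 in WT1 to WT5. The groups overlapped in replicates 2 and 3, while the KO arrays were higher in the other sets. The log2 difference over all arrays was 0.12 ± 0.12 (SE, 5 against 5, 95% interval -0.15 to 0.38, limma adjusted p = 0.60), and it was 0.05 without WT4 and 0.18 without KO3.

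Of the surface molecules, Ctla4 was lower in 4 of 5 KO arrays. Ctla4 read 8.67, 8.71, 8.36, 9.78 and 9.79 log2 units in KO1 to KO5, against 8.56, 8.80, 9.03, 10.09 and 10.29 in WT1 to WT5. Both KO arrays lay below both WT arrays in replicates 2 and 3 and in replicates 4 and 5, and KO1 lay above WT1. Among all tested genes 43.0% and 26.0% lay below in this way in those 2 sets. The difference over all arrays was -0.29 ± 0.13 (SE, 5 against 5, 95% interval -0.58 to -0.01, limma adjusted p = 0.321), or 0.816 of the wild-type level. Within the sets it was 0.11, -0.38 and -0.41, the last with an adjusted p of 0.149 in limma. Of its 8 exon-level probe sets 7 were below 0 and 1, probe set 10346791, stood at 0.94 ± 0.44 (SE, 3 arrays against 3, adjusted p = 0.743).

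Gpr83 encodes a G protein-coupled receptor enriched in mouse regulatory T cells, and its values split by array table. It read 8.03, 7.49, 6.53, 7.66 and 7.67 log2 units in KO1 to KO5, against 8.34, 8.56, 8.89, 7.58 and 7.58 in WT1 to WT5. The KO arrays were lower in the exon-level sets, by the widest margin in KO3, and slightly higher in the gene-level set. The differences were -0.31 in replicate 1, -1.71 ± 0.37 in replicates 2 and 3 (SE, 2 against 2, limma adjusted p = 0.375) and 0.08 ± 0.12 in replicates 4 and 5 (adjusted p = 0.811). Over all arrays the difference was -0.71 ± 0.30 (SE, 5 against 5, 95% interval -1.36 to -0.06, adjusted p = 0.299), and it was -0.41 without KO3 and -0.28 with array weights.

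All 4 exon-level probe sets of Gpr83 were lower in the knockout arrays, by -0.96, -1.20, -1.61 and -1.21 log2 units, and none passed (limma, adjusted p = 0.743 each). In the recovery check of the processing section the probe set fit found 0% of changes of 2 log2 units, so that lack of passes decides little. Probe set 10583289 read 8.15, 7.44 and 5.20 in KO1 to KO3, against 8.31, 8.58 and 8.72 in WT1 to WT3. Probe set 10583288 read 6.97, 5.81 and 6.16 in the KO arrays, against 7.35, 7.16 and 8.03 in the WT arrays. In each of the 4 probe sets all 3 KO arrays lay below the WT arrays of their set, but KO3 was the lowest array in 3 of them and KO2 in the fourth. A test of whether the Gpr83 difference varied between array sets did not pass (limma interaction, adjusted p = 0.642). With single arrays left out, that adjusted p ran from 0.000244 without KO2, where 6385 genes passed, and 0.0120 without KO3, where 438 passed, up to 0.99994 without WT3. Without KO2 or KO3 that set has 1 KO array, whose spread is assumed to be that of the other groups. Beside it, the mean log2 signal of 6 T cell marker genes in replicates 2 and 3 was 9.71 to 9.75 in the KO arrays and 10.55 to 10.56 in the WT arrays, whereas in replicates 4 and 5 it was 10.17 to 10.18 in the KO arrays and 10.10 to 10.28 in the WT arrays. The part of this shift in the Gpr83 difference was not tested.

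**Figure D2:**
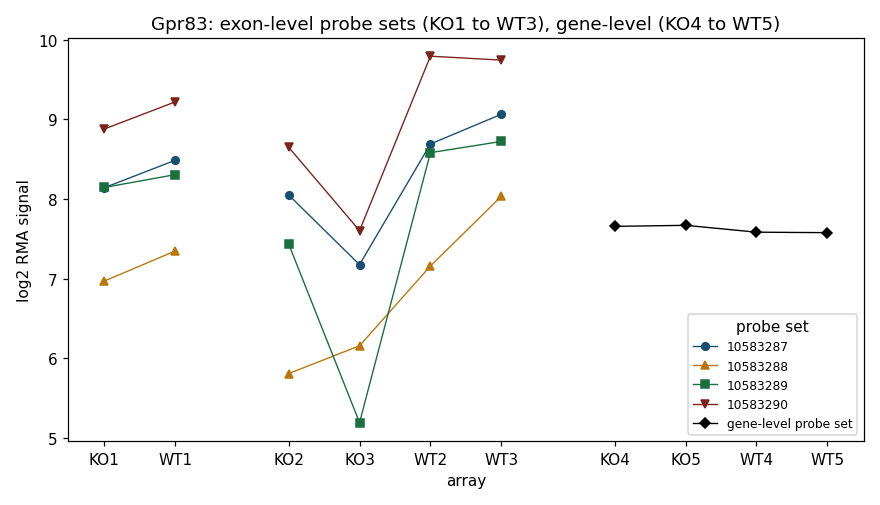
Log2 RMA signal (vertical axis) of the 4 exon-level probe sets of Gpr83 in KO1, WT1, KO2, KO3, WT2 and WT3 and of its gene-level probe set in KO4, KO5, WT4 and WT5 (horizontal axis), with lines joining the points of a probe set within an array set. The exon-level KO points lie below the WT points of their set, down to 5.20 in KO3, while the gene-level points lie between 7.58 and 7.67.

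Nrp1, a receptor for semaphorins and vascular endothelial growth factor that marks thymus-derived regulatory T cells in mice, read 4.17, 5.81, 5.32, 4.48 and 4.34 in KO1 to KO5, against 4.08, 5.42, 5.71, 4.00 and 4.20 in WT1 to WT5. The groups overlapped in replicates 2 and 3, where the difference was near 0, and the KO arrays were higher by 0.31 in replicates 4 and 5 (limma, adjusted p = 0.290). Over all arrays the difference was 0.14 ± 0.13 (SE, 5 against 5, 95% interval -0.15 to 0.44, adjusted p = 0.571). It was 0.02 with the median of exon-level probe sets in place of their mean, 0.09 without WT4 and 0.24 without KO3. Nrp1 was dim: it lay below the array medians in replicates 1 to 3. In replicates 4 and 5 it read 4.00 to 4.48, beside array medians of 4.2 to 4.3. With the filter at the 50th percentile it was not tested. Lrrc32 encodes GARP, which holds latent TGF-beta on the surface of activated regulatory T cells. It read 5.84, 6.59, 7.11, 7.13 and 6.94 in KO1 to KO5, against 6.05, 6.86, 6.86, 6.60 and 7.03 in WT1 to WT5. KO and WT arrays overlapped in the sets with more than 1 array a genotype, and the overall difference was 0.04 ± 0.14 (SE, 5 against 5, 95% interval -0.27 to 0.36, adjusted p = 0.865). Its sign turned when KO3, KO4 or WT4 was left out, with values of -0.03, -0.01 and -0.05.

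Capg encodes an actin-capping protein of the gelsolin family, abundant in macrophages and raised in regulatory T cells. It read 8.62, 9.25, 9.18, 8.73 and 8.60 in KO1 to KO5, against 8.47, 9.68, 9.74, 8.48 and 9.01 in WT1 to WT5. Both KO arrays lay below both WT arrays in replicates 2 and 3, as for 43.0% of all tested genes. KO1 lay above WT1, and the groups overlapped in replicates 4 and 5. The log2 difference was -0.20 ± 0.14 over all arrays (SE, 5 against 5, 95% interval -0.51 to 0.12, limma adjusted p = 0.480), and -0.07 with quantile normalization within array sets. For genes that myeloid cells also express, such as Nrp1 and Capg, the mean log2 signal of 11 myeloid and dendritic cell markers was 4.20 in KO1 and 4.22 in WT1, 5.39 to 5.49 in KO2 and KO3 against 5.27 to 5.29 in WT2 and WT3, and 4.28 to 4.33 in KO4 and KO5 against 4.20 to 4.24 in WT4 and WT5. Of these markers 5 were tested and limma called 0, with 0 under 0.05 before adjustment. Lyz2, a myeloid marker below the filter, was chosen after its values were seen. It was higher in 5 of 5 KO arrays than in the WT arrays of their set. The difference was 0.57 ± 0.14 log2 units (SE, 5 against 5), the largest of the 11 markers. Cd68, Cd14 and Fcgr3 stood below 0, at -0.13, -0.03 and -0.03. The 5 tested markers had a median of 0.04, with 4 above 0 and 1 below. The part of the myeloid markers in the Capg and Nrp1 values was not tested.

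**Figure D3:**
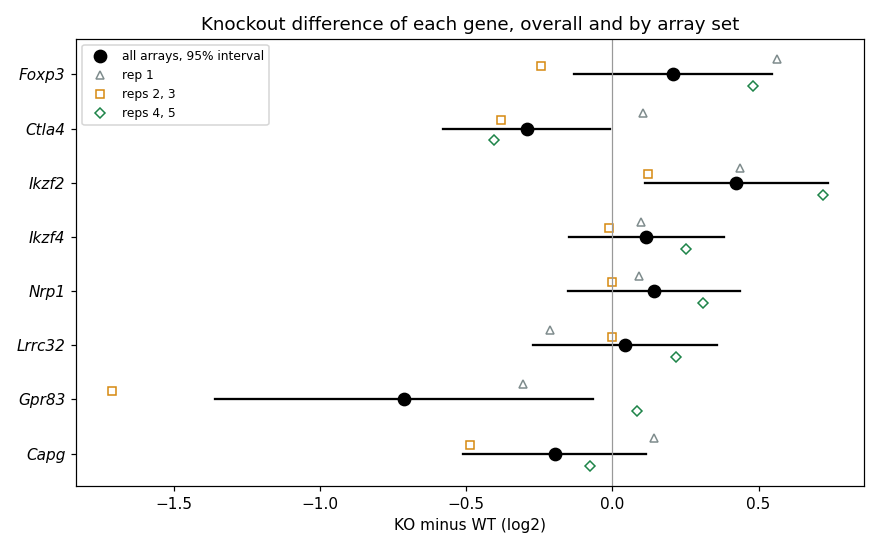
Log2 difference, KO minus WT (horizontal axis), of each of the 8 regulatory T cell genes over all arrays (filled circles with 95% limma intervals) and within replicate 1, replicates 2 and 3, and replicates 4 and 5 (open symbols). The values within sets spread widest for Gpr83, from -1.71 to 0.08, and Ikzf2 has its overall value of 0.42 and all set values above 0.

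The 8 genes were also read set by set, beside all tested genes. In replicates 4 and 5 the KO arrays lay above both WT arrays for 5 of the 8 genes and below for 1, against 20.3% and 26.0% of all tested genes (46.2% in either direction). In replicates 2 and 3 they lay above for 0 and below for 4, against 11.7% and 43.0% (54.7% in either direction). Nrp1, among the 5 genes above in replicates 4 and 5, lay near the array medians there. The median difference of the 8 genes was 0.10 in replicate 1, -0.13 in replicates 2 and 3 and 0.23 in replicates 4 and 5, beside -0.02, -0.22 and -0.01 over all tested genes. No gene of the 8 passed in replicates 2 and 3 (limma, 0 of 8, against 0% of all tested genes; 1 of 8 at an unadjusted p under 0.05, against 9.53%) or in the interaction of genotype and array set (0 of 8, against 0%; 2 of 8 at an unadjusted p under 0.05, against 6.09%). The interaction found 0% of changes of 1 log2 unit in the recovery check, so its lack of passes decides little for changes of that size. Quantile normalization within each set moved the median of all genes in replicates 2 and 3 from -0.22 to -0.06, and in those replicates the values of Ikzf2, Ikzf4, Nrp1, Lrrc32, Ctla4, Capg, Foxp3 and Gpr83 then stood at 0.29, 0.10, 0.04, 0.16, -0.13, -0.21, -0.07 and -1.52, with a median of -0.02.

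The exon-level table holds 75 probe sets that name only 1 of the 8 genes, 69 of them bright enough to be tested. None passed (limma, 0 of 69, against 0% of all probe sets; 3 of 69 at an unadjusted p under 0.05, against 4.67%). The fit recovered 0% of changes of 2 log2 units in the recovery check, so its lack of calls decides little. The probe sets of Gpr83 (4 of 4) and Capg (7 of 7) all lay below 0, as did 7 of 8 of Ctla4, while 8 of 11 of Ikzf2 and 9 of 15 of Foxp3 lay above. Among all tested probe sets 62.2% lay below 0, with a median of -0.18, and the median of those of Capg was -0.15. Nrp1 had the widest spread among its 17 probe sets, from -1.11 to 2.47. Its probe set 10576655 read 6.29, 7.96 and 4.05 in KO1 to KO3, against 2.02, 3.88 and 5.01 in WT1 to WT3, and probe set 10576643 read 10.08 in KO2 but 2.53 in KO1 and 5.36 in KO3, against 2.93, 5.43 and 6.0 in the WT arrays. Within each of these 2 probe sets the 3 KO arrays spanned several log2 units. A further 4 probe sets name Foxp3 together with another gene and were left out.

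**Figure D4:**
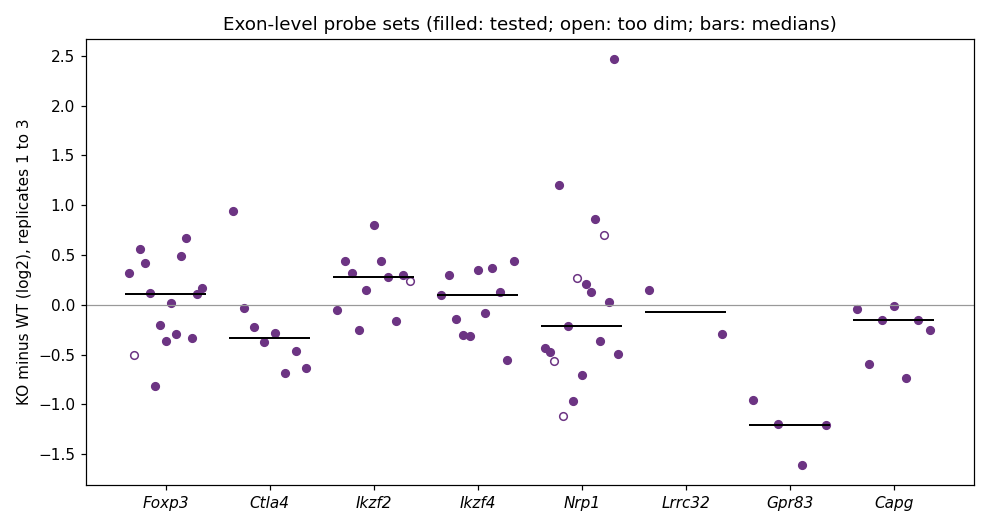
Log2 difference, KO minus WT over replicates 1 to 3 (vertical axis), of each exon-level probe set of the 8 genes (horizontal axis), filled where tested and open where too dim, with bars at medians. The 4 probe sets of Gpr83 lie between -1.61 and -0.96, and those of Nrp1 spread from -1.11 to 2.47.

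Genes related to the 8 were described from 4 lists, which hold 66 genes in all, 61 of them tested. The lists hold Foxp3 regulators and partners, effector and surface genes of regulatory T cells, paralogs, and ligands and binding partners. The paralogs and ligands were listed for their relation to the 8 genes, not for a role in regulatory T cells. Of the 61 tested genes 5 fell and 0 rose over all arrays (limma, adjusted p under 0.05), against 0.488% lower and 0.0961% higher among all tested genes. The lists were chosen with earlier results of these data known, so this contrast is no independent support. The 5 were Il2ra, Icos, Ccr8, Ecm1 and Gsn, and each was lower in 5 of 5 KO arrays than in the WT arrays of its set. The same arrays picked these genes, so that placement is no further support. Among all tested genes 24.7% had a lower KO mean in each of the 3 sets. The count of passing genes was 0 without KO4, WT2 or WT3, 11 without KO3 and 15 with array weights. It was also 0 with the 2 tables as block, where 4 of all 12489 tested genes passed. That block leaves the lower level of KO1 and WT1 in the residual, so its loss of calls decides little. With the median of exon-level probe sets 1 gene passed, Nt5e as higher, and the 5 did not.

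Among 16 regulators and partners of Foxp3, of which 15 were tested, 1 fell. Il2ra encodes CD25, the interleukin-2 receptor chain on which regulatory T cells depend and which activated T cells also display. It read 10.18, 10.44, 10.31, 9.79 and 9.51 log2 units in KO1 to KO5, against 10.89, 12.03, 12.04, 10.21 and 10.56 in WT1 to WT5. The KO arrays lay below the WT arrays in every set, and KO cells held 0.466 times the WT level (-1.10 ± 0.18 log2 units, SE, 5 arrays a genotype, limma adjusted p = 0.0275). The adjusted p reached 0.114 without WT2. The median of the list was -0.30, with 13 of 15 values below 0, beside 63.5% of all tested genes.

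Of 24 effector and surface genes, 22 were tested, 3 fell and 0 rose. Icos, a costimulatory receptor of the CD28 family, read 9.26, 9.68, 9.15, 9.39 and 9.52 in KO1 to KO5, against 10.15, 10.37, 10.38, 10.13 and 10.11 in WT1 to WT5. Each KO array of Icos lay below the WT arrays of its set, and the level was 0.563 of the wild-type level (-0.83 ± 0.13, SE, 5 against 5, limma adjusted p = 0.0205). Ecm1, a secreted matrix protein also made by Th2 cells, stood at 0.554 (-0.85 ± 0.15, adjusted p = 0.0320 in limma), and Ccr8, a chemokine receptor of regulatory and Th2 cells, at 0.572 (-0.81 ± 0.15, adjusted p = 0.0470). With single arrays left out, the limma adjusted p reached 0.108 for Icos and 0.139 for Ecm1 without WT2, and 0.185 for Ccr8 without KO4.

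The median of these 22 genes was -0.43, with 17 below 0. Of these, 2 rose and 3 fell in replicates 4 and 5 alone, against 0.721% and 1.99% of all tested genes. The risers were Nt5e, which encodes the ectoenzyme CD73 (1.3 ± 0.13, SE, 2 against 2, limma adjusted p = 0.00344), and Itgae, the integrin chain CD103 (0.66 ± 0.12, adjusted p = 0.0287). Icos (-0.66, adjusted p = 0.0279 in limma), Ccr8 (-1.12, 0.00465) and Ebi3, a subunit of interleukin-35 (-1.05, 0.00668), fell there. Nt5e, Itgae and Ebi3 were chosen after their values were seen, and Il2ra of the regulator list also fell there (-0.73, limma adjusted p = 0.0461). Over all arrays Nt5e stood at 0.95 ± 0.20 (SE, 5 against 5, adjusted p = 0.0640 in limma), with 4 of 5 KO arrays above the WT arrays of their set. Beside the lower values of these lists, the 6 tested T cell markers had a median of -0.31 over all arrays. By set their median was -0.35 in replicate 1, -0.67 in replicates 2 and 3 and 0.004 in replicates 4 and 5. Their part in the result was not tested.

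Paralogs of the 8 genes gave 1 call among 11 tested. Gsn, the gelsolin gene and a relative of Capg, read 7.08, 7.18, 7.25, 7.02 and 7.38 in KO1 to KO5, against 7.88, 8.76, 8.63, 7.95 and 7.64 in WT1 to WT5. Each KO array was lower than the WT arrays of its set, at 0.504 of the wild-type level (-0.99 ± 0.17, SE, 5 against 5, limma adjusted p = 0.0306). Without KO4 that adjusted p was 0.126. Among 14 tested ligands and binding partners limma called 0, with 2 under 0.05 before adjustment, and the gene of smallest p was Ap2m1, a clathrin adaptor subunit for CTLA-4 uptake (-0.53 ± 0.15, SE, 5 against 5, adjusted p = 0.176).

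**Figure D5:**
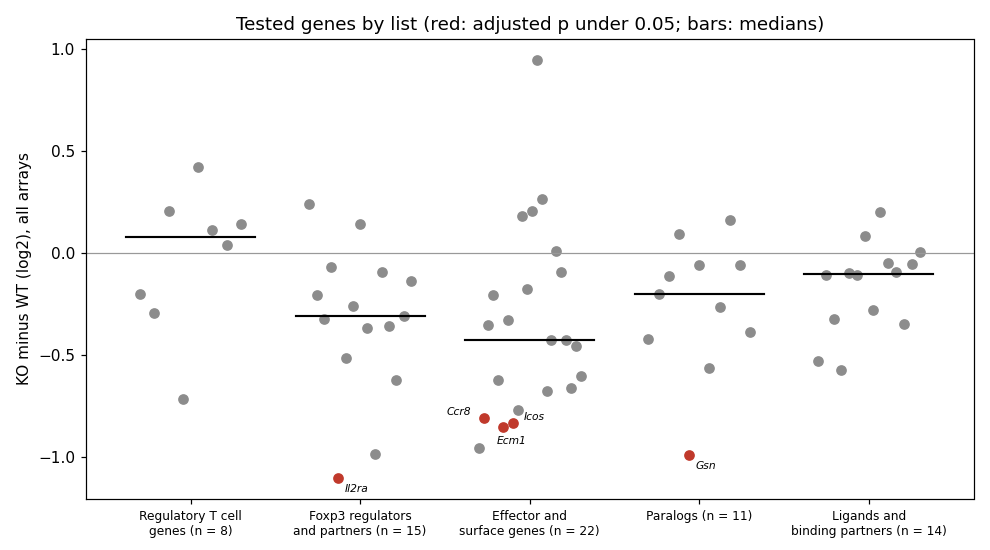
Log2 difference over all arrays, KO minus WT (vertical axis), of the 8 regulatory T cell genes and of the tested genes of 4 related lists (horizontal axis), with red points for an adjusted p under 0.05 in limma and bars at medians. The medians are 0.08 for the 8 genes and -0.43 for effector and surface genes, where Icos, Ecm1 and Ccr8 are marked.

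The genes whose profiles lay closest to Foxp3, by root mean square difference of values centred within array set over the 10 arrays, were Gypc (0.0612 log2 units), Ephb6 (0.0792) and the predicted gene Gm6034 (0.0938). Those closest to Ctla4 were Ndufb7 (0.0566), Wdr24 (0.0569) and Hexim2 (0.0574).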

How the data were processed

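The deposited values are log2 RMA signals of Affymetrix probe sets, with RMA named per the submitters' processing notes; no source used here gives its version or which arrays were normalized together. Names came from the platform annotation, with RefSeq (GRCm38.p6) used to update old symbols, and a probe set naming several genes or none was not used. Exon-level probe sets of a gene were averaged, and the brightest one was taken at the gene level. Tested genes reached the 30th percentile of average signal in both tables.

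Fits used limma 3.58.1 in R 4.3.3 (lmFit and eBayes, 2-sided, Benjamini-Hochberg over all genes tested), with the array set as block. Members, lists and fits were chosen with earlier results of these data known. The rule for named genes took the 8 genes and their probe sets, Klf13, Cd3e, Cd4 and Cd8a, up to 4 passing genes of each list, or else its gene of smallest p, and the 3 closest genes to Foxp3 and Ctla4. Alternatives changed block, normalization, summary, filter, eBayes and weights, or left out each array. On simulated data with independent noise of the same size in every array, changes of 1 log2 unit were recovered in 100% over all arrays. The share was 38% in replicates 4 and 5, 50% in replicates 2 and 3, and 0% in the interaction and the exon-level probe sets. For the probe sets it was 0% at 2 log2 units as well. In these gene fits 50 of 12489 genes were changed by each of 0.5, 1, 1.5 and 2 log2 units. The fit over all arrays made 19 false calls, that in replicates 4 and 5 made 11 and that in replicates 2 and 3 made 7. Changes of 1.5 and 2 log2 units were recovered in 100% over all arrays. The simulation leaves out the poorer likeness of KO2 and KO3 (r = 0.796), so these shares may overstate recovery in the data. Changes of 0.5 log2 units were recovered in 20% over all arrays, 2% in replicates 4 and 5, and 0% in the other fits. The number of arrays limits the precision.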

Additional observations from a re-analysis of the deposited data

Results flagged for a closer look

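Among the WT arrays, WT4 lay apart from the other 4 for Ikzf4, at -0.28 log2 units from the mean of its array set, and for Lrrc32, at -0.32. The gaps to the next array were 0.756 and 0.754 of the group's range, above Dixon's limit of 0.710 for 5 values. Of 16 groups of values tested, chance flags about 1 in 20.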

How the results depend on the processing

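Signs over all arrays held for Foxp3, Ctla4, Ikzf2, Ikzf4, Nrp1, Gpr83 and Capg under every alternative that tested them; Lrrc32 turned without KO3 (-0.03), KO4 (-0.01) and WT4 (-0.0501) and ranged to 0.13 without single arrays, and Capg in replicates 4 and 5 (-0.08) turned to 0.19 without WT5 (-0.34 to 0.19 without single arrays). The count of the 8 genes called over all arrays (0) was 1 with array weights, where Ikzf2 stood at 0.53, and ranged from 0 to 1 without single arrays, where Ikzf2 ranged from 0.34 to 0.52. In replicates 4 and 5 the count (1) ranged from 0 to 1 without single arrays, with Ikzf2 at 0.60 to 0.84. In replicates 2 and 3 (0) it was 1, Gpr83, with the replicate block and 0 to 3 without single arrays (3 without KO2, 2 without KO3), and the interaction (0) gave 0 to 3. Those last fits called 9611 and 6385 of 12489 genes without KO2, and 2501 and 438 without KO3. For probe sets the count was 0 under each alternative, but the main probe set fit recovered 0% of changes of 2 log2 units, so this count decides little. Calls among related genes (5) became 0 with the table as block, 0 with the replicate block, 1 with the median of exon-level probe sets, with or without quantile normalization (chosen after seeing the data), 3 with trend and robust, 15 with array weights and 0 to 11 without single arrays. Over all genes the 73 calls became 4 with the table as block, which leaves the lower level of KO1 and WT1 in the residual. They became 23 with the replicate block, 31 with the median of probe sets, 504 with array weights and 12 to 362 without single arrays. In replicates 4 and 5 the 339 calls became 661 with the replicate block, 515 with trend and robust and 193 to 534 without single arrays, and in replicates 2 and 3 the 0 calls became 85 with the replicate block.

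Replicate numbers were not used to pair the arrays in the main fits. Each set of 2 arrays a genotype gives a single correlation, which cannot settle whether same-numbered arrays were handled together. Deviations of same-numbered arrays correlated at -0.42 in replicates 2 and 3 and -0.24 in replicates 4 and 5. Crossing the numbers within these sets, chosen after seeing the data, turns these correlations positive, so such a block takes up residual spread. With it, 2 of the 8 genes passed in replicates 4 and 5, where 938 of all tested genes passed. In replicates 2 and 3 the count was 1, with 376 of all. Over all arrays it was 0, with 53 of all and 3 of the related genes. Foxp3 passed in replicates 4 and 5 at 0.48, but passes under a block chosen in this way are no support. With the plain replicate block in replicates 2 and 3, limma gave each of the 8 genes the same SE, 0.382 log2 units. The pass of Gpr83 there thus rests on the size of its difference and not on its own spread.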
